A study of Sus scrofa with 35 samples.

Results

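The globin transcripts of pig blood and the transcript of the globin chaperone AHSP were examined in whole blood of 35 castrated male pigs, 1 array per pig. The members were chosen by name: any array feature described as hemoglobin, named AHSP, or with a gene symbol that starts like a globin symbol. The rule found 10 of the 60305 features that are no controls. Of these, 8 belong to 4 genes, HBA, HBB, HBE1 and AHSP, out of 11275 genes with a symbol on the array. The other 2 belong to HBEGF, a growth factor whose symbol only begins like that of epsilon globin, and it was set apart. All 10 features passed the filter on dim values, and the 8 globin and AHSP features were well above background on all 35 arrays.

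The pigs were Creole (CR), Large White (LW), or F1 pigs of both breeds, and each climate is a group of its own within a breed. Thermoneutral (TN) pigs were held at 24 °C and the remaining pigs under heat stress (HS). The labels give 30 °C for HS while the protocol text gives a higher temperature, so only the names HS and TN are used. According to the methods, TN pigs were slaughtered before the temperature rose and HS pigs after 4 or 5 days of it, so climate and slaughter day cannot be told apart. CR TN held 5 pigs and each of the other 5 groups 6 pigs. Whole blood was taken into PAXgene tubes at slaughter.

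Adult haemoglobin is a tetramer of alpha chains, encoded by HBA genes, and beta chains, encoded by HBB, each holding a heme group that binds oxygen. HBE1 encodes the epsilon chain of embryonic haemoglobin. AHSP binds free alpha chains and keeps them from precipitating until they meet a beta chain. Mature pig red cells have no nucleus, and globin RNA in blood lies mostly in reticulocytes, the youngest circulating red cells. In whole blood, fewer reticulocytes and less globin RNA per reticulocyte cannot be told apart.

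Each gene was read by a pair of array features of 60 bases, whose sequences show which pairs are separate measurements. Each sequence is given 5′ to 3′ from base 1, and all but those of HBE1 A_72_P223877 and HBA A_72_P159746 are cut at 30 bases. The capitals in the bright HBA feature are a stop codon at bases 47 to 49, and the HBE1 feature shown whole has a reading frame with no stop codon.
HBA A_72_P159746: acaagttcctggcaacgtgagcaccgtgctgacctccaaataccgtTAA
HBA A_72_P198167: ttaaaggcagtatcttttgtactgtgaatc
HBB O859: ctttaaaacagaaaagacttacatttgctt
HBB A_72_P055481: cctttagaaaaggaatcaagcttgattggc
HBE1 A_72_P104806: ctggggttcggccttgagaacacagcttct
HBE1 A_72_P223877: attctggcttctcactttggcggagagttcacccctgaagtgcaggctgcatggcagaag
AHSP O4980: tgtctaagaaacccttaaatgccgcttctg
The AHSP pair, O4980 and A_72_P385718, had the same 60 bases and counts as 1 measurement. The HBEGF pair was also identical. The longest run shared within a pair was 4 bases for HBA, 7 for HBB and 6 for HBE1, so these pairs read different stretches. HBA A_72_P198167 is described in the files only as a partial match to the alpha chain. Values of different features are not compared as levels of transcript, since brightness also depends on the feature.

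The bright HBA feature stood at the top of the arrays. Its raw median intensity ranged from 474122 to 576175, with a median of 515106 over the 35 pigs, and it was the brightest feature on 33 arrays and second on the others. No pixel of any globin or AHSP spot was saturated. Its coefficient of variation was 5.8%, against 15.3% for HBB O859, 44.5% for HBB A_72_P055481 and 53.3% for HBE1 A_72_P104806. Quantile normalization gives the brightest feature of every array the same value, so HBA stood at 19.01 (log2) in 33 pigs and at 18.89 in the other 2. Its normalized values therefore carry almost no information on the groups. The second HBA feature was dim, with raw intensities of 100 to 466.

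**Figure D1:**
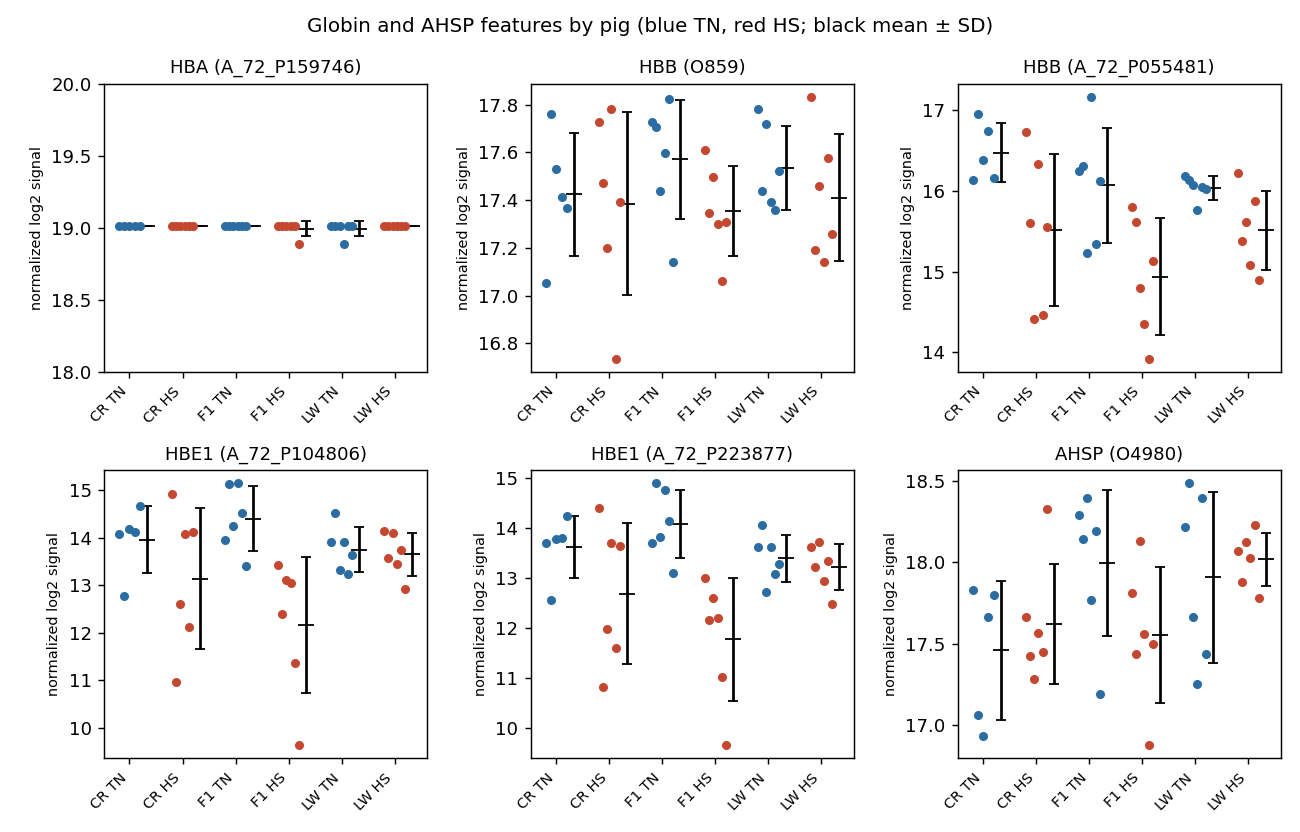
Normalized log2 signal of 6 features of HBA, HBB, HBE1 and AHSP in each of the 35 pigs, by breed and climate. Points are pigs (blue TN, red HS) and black bars the mean ± SD of each group. HBA A_72_P159746 is at 19.01 in 33 pigs, whereas HBE1 A_72_P104806 in F1 pigs lies at 9.63 to 13.42 in HS and at 13.40 to 15.14 in TN.

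The first question was whether globin transcripts differed between HS and TN over the 3 breeds. HBE1 and 1 of the HBB features were down-regulated in HS, and HBB O859, HBA and AHSP did not pass the threshold. In the additive limma model of breed and climate, 3 of the 8 globin and AHSP features passed at an adjusted p of 0.05, all 3 lower in HS. Of all retained features, 33.4% passed in either direction and 13.9% were lower in HS. Pen, slaughter day, father and mother were not fitted here. The paper fitted them and reported a far smaller share of differential probes in blood. The 3 of 8 is near the background in either direction and above that for lower values, with a pair of the 3 from the same gene. All 3 calls were lost without F1 pigs, where 0 of all 41466 retained features passed by limma (6995 at an unadjusted p under 0.05). HBE1 A_72_P104806 then differed by -0.45 (adjusted p = 0.487), A_72_P223877 by -0.54 (adjusted p = 0.385) and HBB A_72_P055481 by -0.73 (adjusted p = 0.2).

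HBB is the beta chain of adult haemoglobin. For HBB A_72_P055481, normalized log2 values of the 5 CR TN pigs were 16.14, 16.95, 16.38, 16.75 and 16.16. CR HS pigs had a lowest value of 14.42, a median of 15.58 and a highest of 16.74. The 2 groups overlapped, with 4 of 6 HS pigs below the lowest TN pig. F1 TN pigs ranged from 15.24 to 17.17 (median 16.19) and F1 HS pigs from 13.92 to 15.80 (median 14.97). LW TN pigs ranged from 15.76 to 16.18 (median 16.06) and LW HS pigs from 14.90 to 16.22 (median 15.50). In each breed, 4 of 6 HS pigs lay below the lowest TN pig. Over breeds, HS minus TN was -0.87 ± 0.20 (log2, SE; limma adjusted p = 0.00248), with 16 of 18 HS pigs below the TN mean of their breed. By mean, the groups ran CR TN 16.47, F1 TN 16.07, LW TN 16.04, CR HS 15.52, LW HS 15.51 and F1 HS 14.94, so the 3 TN groups were above the 3 HS groups. No neighbours in this order differed by more than the larger of their SDs, which were 0.36, 0.71, 0.15, 0.94, 0.49 and 0.73.

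The other HBB feature, O859, varied far less. Its log2 values were 17.05, 17.76, 17.53, 17.41 and 17.37 in the 5 CR TN pigs and ran from 16.74 to 17.78 (median 17.43) in CR HS pigs. F1 pigs lay between 17.14 and 17.82 (median 17.65) in TN and between 17.06 and 17.61 (median 17.33) in HS. LW pigs lay between 17.36 and 17.78 (median 17.48) in TN and between 17.14 and 17.83 (median 17.36) in HS. The groups overlapped in every breed. HS minus TN was -0.13 ± 0.09 (SE, limma adjusted p = 0.243), with a 95% interval of -0.31 to 0.05.

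The HBB features were compared with each other within each pig, a comparison added after the data were seen. The log2 of A_72_P055481 minus that of O859 went from -0.95 in TN to -1.87 in HS in CR pigs, a difference of -0.92 (two-sided exact permutation p = 0.013, adjusted p = 0.0195 over 3 breeds). In F1 pigs it went from -1.50 to -2.42 (exact permutation p = 0.0411, adjusted p = 0.0411). LW pigs went from -1.50 to -1.90 (exact permutation p = 0.00649, adjusted p = 0.0195). In every breed, all 6 HS pigs were below the TN mean. The 2 features thus gave unequal differences for the same gene, and which of them follows the HBB transcript was not tested. Over the 35 pigs they had a Pearson r of 0.603 and a Spearman rho of 0.596 (permutation p = 0.00015 and 0.00032, adjusted p = 0.00025 and 0.0004 over 5 pairs). Without the 2 pigs farthest from the median r was 0.548, and within the 4 slides of at least 6 arrays it ranged from 0.452 to 0.687.

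HBE1, the embryonic chain, had the lowest HS minus TN of the 4 genes over breeds and in F1 pigs, whereas in CR and LW pigs that of HBB A_72_P055481 was lower. For HBE1 A_72_P104806, the 5 CR TN pigs had log2 values of 14.08, 12.77, 14.20, 14.12 and 14.66, and CR HS pigs ranged from 10.97 to 14.92 (median 13.35). The highest and the lowest CR pig were both in HS. F1 TN pigs ranged from 13.40 to 15.14 (median 14.39), and F1 HS pigs from 9.63 to 13.42 (median 12.73). Of the 6 F1 HS pigs, 5 lay below every F1 TN pig. LW pigs ranged from 13.24 to 14.52 (median 13.77) in TN and from 12.92 to 14.13 (median 13.66) in HS and overlapped almost entirely. HS minus TN over breeds was -1.06 ± 0.34 (limma adjusted p = 0.0172), with 13 of 18 HS pigs below the TN mean of their breed. The second HBE1 feature, A_72_P223877, gave -1.14 ± 0.32 (limma adjusted p = 0.00744).

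The HBE1 features have different sequences and varied together. Their Pearson r was 0.991 and their Spearman rho 0.985 over 35 pigs (permutation p = 1e-05 for each, the smallest possible, adjusted p = 2e-05), with r = 0.988 without the 2 farthest pigs. Within slides r was 0.992 to 0.998. For comparison, the identical AHSP features had an r of 0.98 and a rho of 0.979. HBE1 A_72_P104806 also followed HBB A_72_P055481, with r = 0.567 and rho = 0.599 (permutation p = 0.00052 and 0.00013, adjusted p = 0.00065 and 0.000217). That r was 0.51 without the 2 farthest pigs, 0.359 after the group means were removed and 0.332 to 0.854 within slides.

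**Figure D2:**
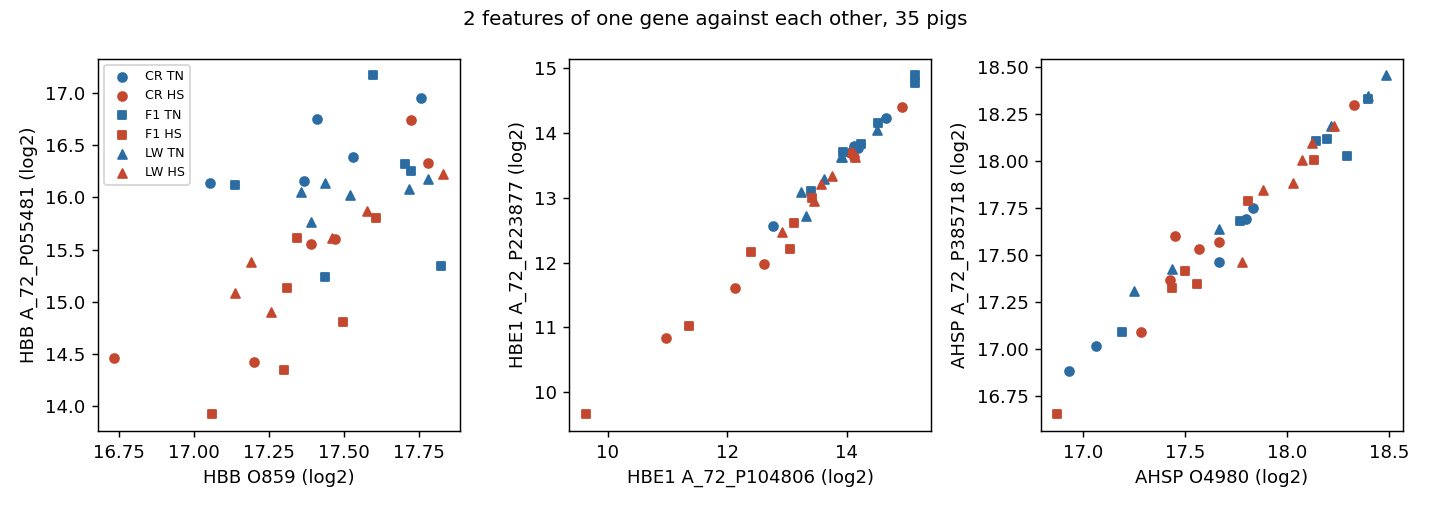
Normalized log2 signal of one feature against the other feature of the same gene, for HBB, HBE1 and AHSP, in 35 pigs (circles CR, squares F1, triangles LW, blue TN, red HS). HBE1 (r = 0.991) and AHSP (r = 0.98) lie on a line, while the HBB features scatter (r = 0.603).

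AHSP, the alpha chain chaperone, did not pass the threshold. AHSP O4980 had log2 values of 17.83, 17.06, 16.93, 17.67 and 17.80 in the 5 CR TN pigs and ranged from 17.28 to 18.33 (median 17.51) in CR HS pigs. F1 pigs ranged from 17.19 to 18.40 (median 18.17) in TN and from 16.87 to 18.13 (median 17.53) in HS. LW pigs ranged from 17.25 to 18.49 (median 17.94) in TN and from 17.78 to 18.23 (median 18.05) in HS. All 3 pairs of groups overlapped. HS minus TN was -0.07 ± 0.14 (limma adjusted p = 0.734), with a 95% interval of -0.34 to 0.21 that leaves room for a fall or a rise. By mean, the groups ran LW HS 18.02, F1 TN 18.00, LW TN 17.91, CR HS 17.62, F1 HS 17.55 and CR TN 17.46, with no gap between neighbours above their SDs. The order was thus not one of climate. AHSP and HBE1 A_72_P104806 had r = 0.455 and rho = 0.466 (permutation p = 0.00511 and 0.00504, adjusted p = 0.00511 and 0.00504), r = 0.456 without the 2 farthest pigs, and 0.373 to 0.672 within slides.

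For HBA, limma gave 0.00 ± 0.03 for the bright feature, whose normalized value is fixed by its rank, and 0.17 ± 0.09 (adjusted p = 0.121) for A_72_P198167. Of the HBEGF features, which lay near background and were well above it on 26 and 20 arrays, O9806 was higher in HS by 0.18 ± 0.07 (limma adjusted p = 0.0341) and A_72_P035756, with the same sequence, differed by 0.07 ± 0.06 (adjusted p = 0.421).

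**Figure D3:**
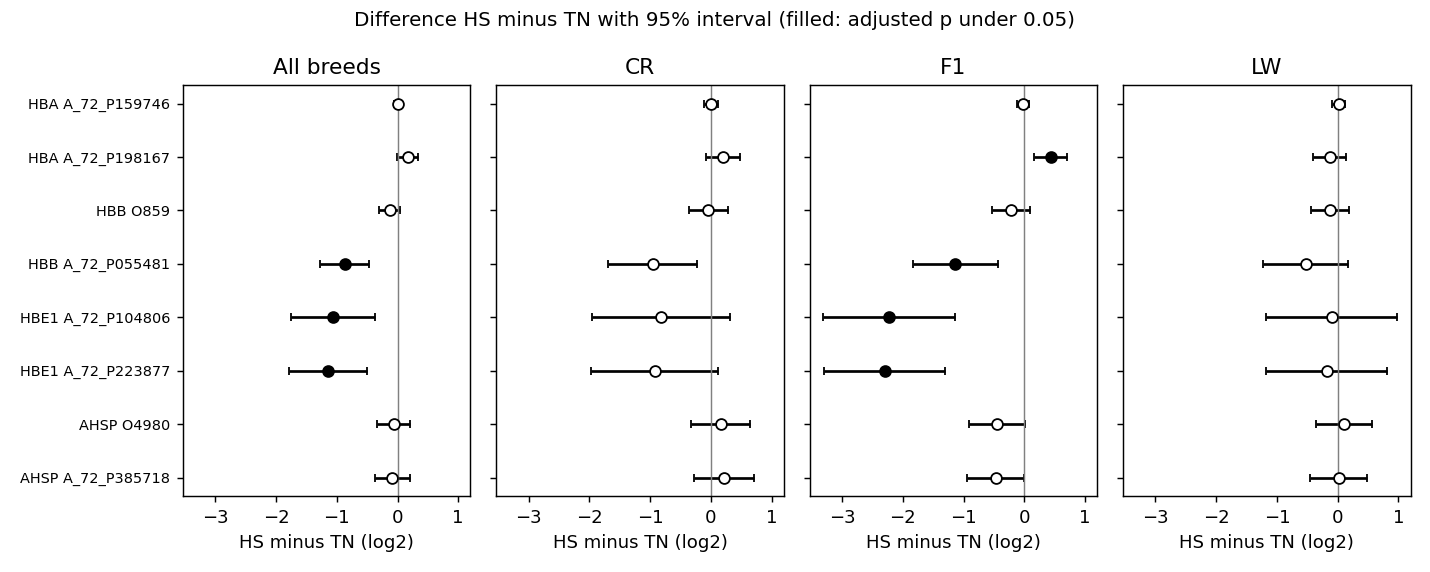
Difference HS minus TN in normalized log2 signal for the 8 globin and AHSP features, over all breeds and in CR, F1 and LW pigs, with 95% intervals from limma. Filled points passed an adjusted p of 0.05. HBE1 A_72_P104806 differed by -2.23 in F1 pigs and by -0.10 in LW pigs.

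Within breeds, the globin features passed the threshold in F1 pigs only, as was so for all retained features of the array. The difference between breeds itself did not pass the threshold. In F1 pigs, 4 of the 8 features were detected by limma, 3 lower and 1 higher in HS. The background was 37.9% of all retained features in either direction and 16.9% lower in HS, with a median difference of 0.14 over all features. The 4 of 8 is not far from the background in either direction, and the 3 of 8 is above that for lower values. A pair of the 3 reads the same gene, HBE1, and the 8 hold the AHSP measurement as a pair. HBE1 A_72_P104806 differed by -2.23 ± 0.53 on the log2 scale (limma adjusted p = 0.00217), with 5 of 6 HS pigs below every TN pig. HBE1 A_72_P223877 differed by -2.30 ± 0.49 (limma adjusted p = 0.000878), with all 6 HS pigs below every TN pig. HBB A_72_P055481 differed by -1.14 ± 0.34 (adjusted p = 0.0112). HBA A_72_P198167 was higher by 0.44 ± 0.13 (limma adjusted p = 0.0108), from 7.46 ± 0.19 (SD, n = 6) in TN to 7.90 ± 0.29 (n = 6) in HS without overlap. This feature is dim and described only as a partial match to the alpha chain, and whether it reads HBA was not tested. How many of all features showed no overlap in F1 pigs was not counted. HBB O859 (-0.22 ± 0.15, adjusted p = 0.249) and AHSP O4980 (-0.45 ± 0.23, adjusted p = 0.113) did not pass by limma. With slide as a block, AHSP A_72_P385718 passed (-0.57, limma adjusted p = 0.0465) and O4980, of the same sequence, did not (-0.54, adjusted p = 0.0543). Without F1 TN replicate 6 both passed (-0.63 and -0.61, limma adjusted p = 0.0272 and 0.0283).

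The F1 arrays differed in brightness, and the F1 calls depended on the scaling. The 75th percentile of the processed intensity was 149.9 ± 28.3 (SD, n = 6) in F1 TN and 237.9 ± 35.6 (n = 6) in F1 HS, against group means of 202.1 to 227.8 in CR and LW pigs. When each array was scaled to that percentile, all 8 features passed in F1 pigs by limma, with 36.5% of all retained features. AHSP O4980 then differed by -1.09 (adjusted p = 0.00175), HBB O859 by -0.85 (adjusted p = 0.00866) and the bright HBA feature by -0.71 (adjusted p = 0.0039). The median over all features was 0.17 under that scaling. With no normalization HBB A_72_P055481 no longer passed (-0.71, adjusted p = 0.0606), although 57.8% of all features did, and the median over all features was 0.45. AHSP O4980, HBB O859 and the bright HBA feature then differed by -0.41, -0.17 and -0.03 (limma adjusted p = 0.129, 0.297 and 0.748). Their falls under the 75th percentile thus depended on the scaling. The part of array brightness in these results was not tested.

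In CR and LW pigs, 0 of the 8 features passed by limma, as did 0% of all retained features in each of these breeds. At an unadjusted p under 0.05 there were 3558 features in CR and 3492 in LW. HBB A_72_P055481 was among them in CR pigs (-0.96 ± 0.36, limma adjusted p = 0.577), with a 95% interval of -1.69 to -0.22, and differed by -0.53 ± 0.34 in LW pigs (adjusted p = 0.646). HBE1 A_72_P104806 differed by -0.83 ± 0.56 in CR pigs (limma adjusted p = 0.659) and by -0.10 ± 0.53 in LW pigs (adjusted p = 0.962), with intervals of -1.96 to 0.31 and -1.19 to 0.99. AHSP O4980 differed by 0.16 ± 0.24 in CR and 0.11 ± 0.23 in LW pigs (limma adjusted p = 0.871 and 0.894).

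The interaction of breed and climate passed for 0 of the 8 features by limma, and for 0% of all retained features (6129 at an unadjusted p under 0.05). The HS effect on HBE1 A_72_P104806 in F1 pigs minus that in LW pigs was -2.14 ± 0.75 (limma adjusted p = 0.125), and that on A_72_P223877 was -2.12 ± 0.69 (adjusted p = 0.124). The 95% intervals of these differences, -3.67 to -0.60 and -3.53 to -0.71, do not include the adjustment over all features. Between F1 and CR pigs the difference for A_72_P104806 was -1.41 ± 0.77 (limma adjusted p = 0.457).

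The second factor was breed. No globin or AHSP feature passed in any breed contrast by limma, where 1.01% of all retained features passed between CR and LW pigs, 0.181% between F1 and CR pigs and 0.0145% between F1 and LW pigs. AHSP O4980 was nearest, at -0.41 ± 0.17 in CR minus LW pigs (unadjusted p = 0.0196, limma adjusted p = 0.352). HBB A_72_P055481 differed by -0.49 ± 0.25 in F1 minus CR pigs (limma adjusted p = 0.945). For HBE1 A_72_P104806 the 3 contrasts were -0.14, -0.28 and -0.42.

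The array also gives the globin signal before any normalization, as the share of the summed raw median intensity of all features taken by the 6 globin features. That share was 0.953% ± 0.188 (SD, n = 35), with a range of 0.649% to 1.42%. It fell in F1 pigs from 1.15% ± 0.204 (SD, n = 6) in TN to 0.807% ± 0.0895 (n = 6) in HS, a difference of -0.343 ± 0.0909 percentage points (SE, two-sided exact permutation p = 0.00433, adjusted p = 0.013 over 3 breeds). All 6 F1 HS pigs were below the TN mean. In CR pigs the 5 TN shares had a median of 0.931% and the 6 HS shares a median of 0.812% (difference -0.0542 ± 0.125, adjusted p = 0.669 by the same exact test). The LW shares differed by -0.0373 ± 0.0791 (adjusted p = 0.669 by the same exact test). The smallest p these tests allow is 0.00216. The HS effect on the share in F1 minus LW pigs was -0.306 (exact permutation p = 0.0169, adjusted p = 0.0508 over 3 pairs of breeds), in F1 minus CR pigs -0.289 (exact permutation p = 0.0708, adjusted p = 0.106) and in CR minus LW pigs -0.0169 (exact permutation p = 0.904, adjusted p = 0.904).

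A share has 2 terms, and both were examined after the data were seen. The summed raw intensity of the 6 globin features in F1 pigs went from 818000 to 745100 (exact permutation p = 0.169, adjusted p = 0.253), while the summed raw intensity of all features went from 72400000 to 92520000 (exact permutation p = 0.00649, adjusted p = 0.0195). All 6 F1 HS arrays had a higher total than the F1 TN mean. In CR pigs the totals were 91230000 and 89190000 and in LW pigs 81770000 and 84620000, with adjusted exact permutation p-values of 0.851 and 0.825. The fall of the share in F1 pigs thus went with a rise of the total. HBA, with a raw intensity of 526800 ± 26470 in F1 TN and 517100 ± 45120 in F1 HS (SD, n = 6 each), made up most of the share. Its share in F1 pigs went from 0.740% to 0.562%. Without its bright feature the globin share in F1 pigs still fell, from 0.410% to 0.245% (exact permutation p = 0.00649, adjusted p = 0.0195).

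**Figure D4:**
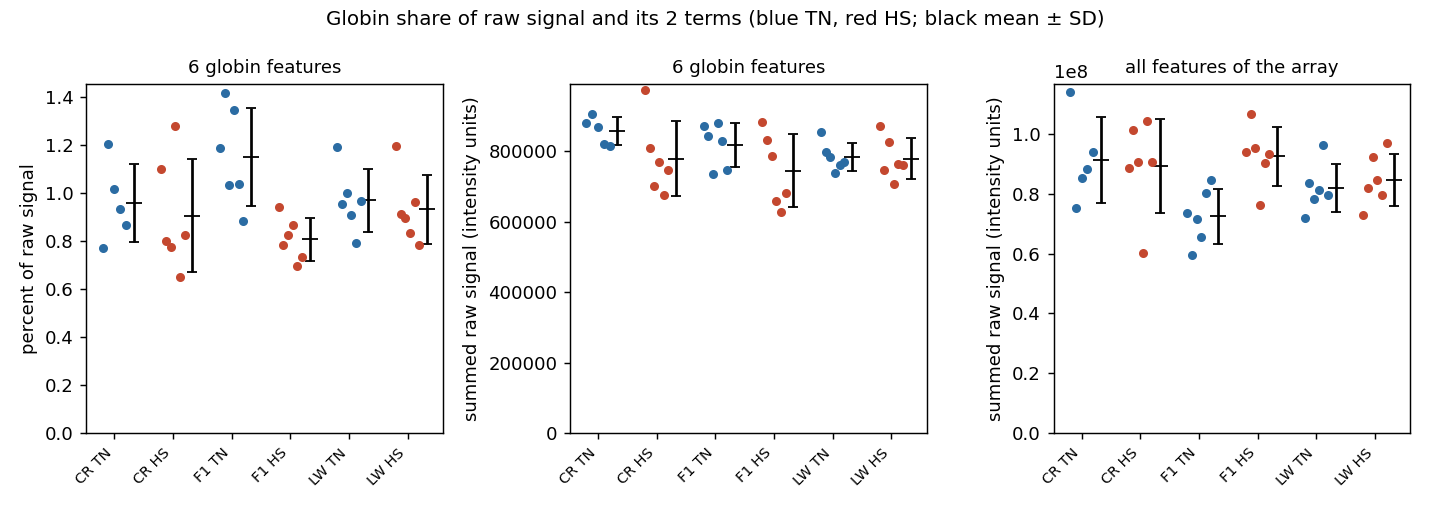
Share of the raw signal of the array taken by the 6 globin features (percent), the summed raw signal of these features and of all features (intensity units of the scanner), per pig and group. Points are pigs (blue TN, red HS) and black bars the mean ± SD. The share in F1 pigs is 1.15% in TN and 0.807% in HS, while the total of the array is 72400000 and 92520000.

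The shares of single genes were also tested after the data were seen. HBE1 had the largest relative difference in share in F1 pigs, from 0.0453% in TN to 0.0131% in HS (exact permutation p = 0.00433, adjusted p = 0.013). HBB went from 0.365% to 0.232% (exact permutation p = 0.00866, adjusted p = 0.026) and AHSP from 0.732% to 0.426% (exact permutation p = 0.0108, adjusted p = 0.0325). In CR and LW pigs none of these shares passed. The AHSP share sums its pair of features of the same sequence, so it counts the same measurement more than once. AHSP O4980 alone had a mean share of 0.376% in F1 TN and 0.221% in F1 HS, which was not tested. The ratio of AHSP to HBB, taken as log2 AHSP O4980 minus log2 HBB O859 on unnormalized intensities, does not depend on the total signal of the array. HS minus TN of this ratio was 0.23 ± 0.32 in CR, -0.24 ± 0.17 in F1 and 0.22 ± 0.24 in LW pigs (SE, two-sided exact permutation p = 0.474, 0.188 and 0.336, adjusted p = 0.474 for each). With HBB A_72_P055481 in place of O859, an alternative added after the data were seen, the differences were 1.06, 0.30 and 0.61, and that in LW pigs passed (exact permutation p = 0.013, adjusted p = 0.039).

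Arrays lay on 5 slides, each with HS and TN pigs. After the mean of each breed was removed, HS minus TN for HBB A_72_P055481 was -0.18, -0.94, -1.44, -1.05 and -0.65 on slides 1 to 5, so it was negative on every slide. HBE1 A_72_P104806 was at 0.11, -1.73, -1.09, -1.56 and -1.25, with the first slide apart from the rest. AHSP O4980 ranged from -0.16 to 0.30 and HBB O859 from -0.24 to 0.03.

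Genes of heme synthesis and of red cell function were examined as lists, each gene as the mean of its retained features. Of 9248 genes, 39.4% passed over breeds and 43.6% in F1 pigs, with 15.5% and 18.8% lower in HS, and the medians over all genes were 0.05 and 0.11. List counts were not made in CR or LW pigs alone or without F1 pigs. Without F1 pigs, 0 of all 41466 retained features passed by limma, so a call over breeds does not show a difference in each breed. Of the 10 measured genes of heme synthesis, 5 were lower and 0 higher over breeds, with a median of -0.49, and the same numbers held in F1 pigs with a median of -0.74. ALAD, which makes porphobilinogen, differed by -0.79 ± 0.23 and UROD, a decarboxylase of a later step, by -0.74 ± 0.18 (limma adjusted p = 0.00939 and 0.00278). ALAS2, the erythroid enzyme of the first step, differed by -0.74 ± 0.19 (limma adjusted p = 0.00333).

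Of 9 genes of red cell gas transport and redox, 7 were lower and 0 higher over breeds (median -0.61), and 8 were lower in F1 pigs (median -1.13). The carbonic anhydrases CA1 and CA2 differed by -1.41 ± 0.34 and -1.0 ± 0.29 and the cytochrome CYB5A by -0.88 ± 0.18 (limma adjusted p = 0.00257, 0.00755 and 0.00122). Of 7 erythroid transcription factors, 3 were lower and 0 higher (median -0.22). These were GFI1B (-0.52 ± 0.13), GATA1 (-0.29 ± 0.10) and LDB1 (-0.22 ± 0.07), with limma adjusted p-values of 0.00245, 0.018 and 0.0144. Of 6 genes that clear haemoglobin or break down heme, 2 were higher, the biliverdin reductase BLVRA (0.35 ± 0.13, limma adjusted p = 0.0303) and the heme oxygenase HMOX2 (0.18 ± 0.06, adjusted p = 0.0138). In F1 pigs 0 of the 6 were higher and 1 was lower, the heme carrier HPX (-0.46 ± 0.14, limma adjusted p = 0.00844), named after its values were seen. Under scaling on the 75th percentile 2 were higher and 1 lower over breeds. EIF2AK1, the kinase that slows translation when heme is short, differed by -0.16 ± 0.14 (limma adjusted p = 0.368).

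Markers of the cells in blood are given beside the 39.4% of all genes that passed. Of 6 measured markers of reticulocytes and other erythroid cells, 4 were lower in HS and 0 higher (median -0.63, limma). Among them, ALAS2 is also in the heme synthesis list and SLC4A1 in that of red cell gas transport, so these lists are not separate from each other. The mean log2 value over these markers ranged over the pigs from 9.12 to 11.22 in F1 TN and from 7.79 to 9.33 in F1 HS. It ranged from 8.92 to 10.29 in CR TN, 8.40 to 10.07 in CR HS, 9.30 to 10.17 in LW TN and 8.75 to 9.89 in LW HS. Of 30 white cell and platelet markers 8 passed (26.7%), below the share of all genes. Of these, 3 of 6 T cell, 2 of 4 B cell and 1 of 4 monocyte markers were higher and 0 lower, 0 of 6 neutrophil and 0 of 5 platelet markers passed, and 2 of 5 cytotoxic cell markers were lower. The T cell mean was 9.30 to 9.79 in F1 TN and 9.61 to 10.20 in F1 HS. The part of the cell make-up in the globin differences was not tested.

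The genes most like HBB and AHSP across the 35 pigs are given as a description. The 5 genes with the highest Pearson r to HBB O859 were FGF18 (0.765), XPO7 (0.753), ECT2 (0.75), FBXO7 (0.743) and ENDOD1 (0.741). For HBB A_72_P055481 they were NTAN1 (0.903), FAM213A (0.9), TFDP2 (0.888), RIOK3 (0.887) and STRADB (0.878), so none was shared between the HBB features. For AHSP O4980 they were GPX1 (0.719), ATOX1 (0.677), LOC100156985 (0.67), DCPS (0.654) and ATPIF1 (0.645). These points share climate and array brightness, and after the group means were removed the r of NTAN1 was 0.859 and that of GPX1 0.664.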

How the data were processed

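Whole blood RNA of 35 pigs was hybridised to 1-colour Agilent arrays, and the groups were taken from the sample labels. Per the file headers and labels, arrays were read with Feature Extraction 10.10.1.1. The authors deposited, for each array, the median intensity of every spot, its local background and a processed intensity, none normalized between arrays. They also deposited log2 values made by quantile normalization of the median intensity.

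The median intensity was quantile normalized over all spots and log2 transformed without background correction, as in the methods, with limma 3.58.1 under R 4.3.3. Spots used as controls were then dropped and 217 spots marked as outliers were set to missing. The median absolute difference from the authors' log2 values was 0.0235 over 39072 features. A feature was retained when well above background in a group on a fraction of its arrays of 0.5 or more, which left 41466 of 60305 features (68.8%). HS minus TN and breed contrasts came from an additive model, and effects within breeds and the interaction from the 6 group means, with lmFit, eBayes and Benjamini-Hochberg adjustment over all retained features. Pen, slaughter day, father and mother were not in the labels and were not fitted, so pigs were treated as independent. With 1 array per pig, p-values measure the spread between pigs as if each pig were independent. According to the methods, pigs of a breed shared pens, each pen was slaughtered in 1 climate, and blocks of littermates were used. The limma and exact permutation p-values leave this structure out, so precision is limited by pens and litters as well as by arrays.

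Shares and ratios were tested by two-sided exact permutation in Python 3.11.15 with scipy 1.17.1, adjusted over 3 breeds. Correlations used 100000 permutations. On simulated data, the limma fit of HS minus TN over breeds on 41466 features recovered 78% of 100 features changed by 0.5 (log2) and 98% of 100 changed by 1.0, with 3.83% false among those called. The simulated features were independent of each other and shared no pens, litters or array brightness, and few were changed. In the data 33.4% of features passed, so these rates do not carry over to the data. Contrasts within breeds were not simulated. The members and the gene lists were chosen with earlier results of these data known. Each globin and AHSP gene was represented by its feature with the highest mean, with its other feature given beside it. By that rule HBB is O859 and HBE1 is A_72_P104806. The description of HBB departs from the rule, since it opens with A_72_P055481, the feature with the lower mean and the larger difference. Genes of the lists were the mean of their retained features, and at most 3 of the called genes with the largest change were named per list, and ALAS2, EIF2AK1 and HPX were named after their values were seen. A gene that the rule would name in the heme synthesis list is not reported here. The files give no genome build, so no coordinates are given, and HBM and HBZ had no feature under the rule.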

Additional observations from a re-analysis of the deposited data

Results flagged for a closer look

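In groups of 5 or 6 pigs, a pig was singled out when its gap to the nearest pig was a large part of the range of the group. This was the case for 6 of 50 sets of values with any spread (12%), where chance gives about 5%. That rate does not hold for the bright HBA feature, whose value normalization fixes in nearly all pigs, so that its sets with any spread were bound to be singled out. HBA A_72_P159746 was at 18.89 in F1 HS replicate 6 and at 18.89 in LW TN replicate 4, with all other pigs of these groups at 19.01, because another feature was the brightest on these arrays. HBA A_72_P198167 was high in CR TN replicate 1 (8.25, others 7.39 to 7.64) and low in LW HS replicate 1 (7.32, others 7.62 to 7.77). HBB A_72_P055481 was low in LW TN replicate 4 (15.76, others 16.03 to 16.18). AHSP O4980 was high in CR HS replicate 6 (18.33, others 17.28 to 17.67).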

How the results depend on the processing

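Limits of the design are the 5 or 6 pigs per group, the shared pens and litters that were not fitted, and the dependence on F1 pigs. Of the 8 globin and AHSP features, 3 passed over breeds by limma and 0 without F1 pigs, as did 0 of all 41466 features, and AHSP O4980 and A_72_P385718 turned to 0.13 and 0.11 and HBB A_72_P055481, HBE1 A_72_P104806 and A_72_P223877 gave -0.73, -0.45 and -0.54 (adjusted p = 0.2, 0.487 and 0.385). In F1 pigs 4 passed (37.9% of all features), 8 with scaling on the 75th percentile (36.5%), 5 with slide as a block (42.2%), 3 with no normalization (57.8%) and 4 under the other alternatives of processing. The count was 3 to 4 over breeds and 4 to 6 in F1 pigs when each array was left out. Leaving out the bright HBA feature over breeds, which is at 0, the single features gave 15 values under 666 alternatives in all, of which 651 stayed on their side of the threshold without turning, 4 lost it, 9 gained it and 2 turned.

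The share of raw signal in F1 pigs kept its call under every alternative run, at -0.396 to -0.29 when each array was left out. Each alternative is still a share of an array total, and the raw total was higher in F1 HS than in F1 TN. The summed raw intensity of the globin features did not pass in F1 pigs (exact permutation adjusted p = 0.253). In CR pigs the difference in share was -0.129 to 0.00698, turning without CR TN replicate 2 (0.00698). In LW pigs it was -0.0902 to 0.00674, turning without LW TN replicate 1 (0.00674). The HS effect of F1 minus LW pigs passed with the processed signal (-0.323) and with each slide centred (-0.261), and ranged from -0.359 to -0.252 when each array was left out, passing without 8 of 24 arrays. That of F1 minus CR pigs passed with each slide centred (-0.344) and without CR HS replicate 5, with a range of -0.35 to -0.214. That of CR minus LW pigs was 0.0829 with each slide centred and -0.0913 to 0.0443 when each array was left out. The ratio of AHSP to HBB with the second HBB feature was 0.30 in F1 and 0.61 in LW pigs. No paired analysis was possible because pigs were numbered in the order of the records and the numbers pair no animals.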
